A study of Chlorocebus sabaeus with 10 samples.

Results

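Cell-to-cell junctions of the liver were examined through 10 genes: CDH1, CTNNB1, CTNNA1, JUP, CLIP1, RAC1, CLDN1, TJP1, OCLN and GJB1. They were found by their gene symbol among the 28078 transcripts of the deposited count table, with the transcript of the highest mean count taken for a symbol that had several. All 10 were present with 1 transcript each, and all 10 were among the 7948 transcripts with enough counts to be tested. Livers came from 10 female vervet monkeys (Chlorocebus sabaeus), all kept on chow beforehand. Of these, 5 were fed a high fructose (HFr) diet and 5 stayed on chow, for 6 weeks. The study assigned the animals to balance age and body weight. Its HFr group still had the higher mean age, with a wide spread in both groups, a difference not significant in the study's test. Each animal gave 1 library of polyadenylated RNA.

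Epithelial cells are joined by 3 kinds of contact that differ in what they do. In adherens junctions, E-cadherin reaches across to the neighbouring cell and is tied to actin inside the cell through catenins. In tight junctions, claudins and occludin seal the gap between cells, which in the liver keeps bile in the canaliculus and apart from blood. In gap junctions, connexins form channels through which hepatocytes pass ions and small molecules to each other.

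Values are normalized counts in CPM, that is, counts scaled to the TMM-adjusted total of the library. Transcript lengths are not in the tables, so levels are compared between animals and not between genes, and a gene's CPM is not corrected for its length. The library of an animal held between 2977282 and 4992505 estimated counts, of which 34.7% to 73.6% lay on mitochondrial transcripts, leaving 864571 to 2657103 counts on nuclear transcripts. The summed CPM of 7 hepatocyte markers was 41118 to 64440 on HFr and 34151 to 71601 on chow, while the skeletal muscle genes CKM, MYH2 and MYH7 and the epidermal keratin KRT14 were at 0 in all 10 libraries. In bulk tissue, fewer cells of a type and less RNA per cell cannot be told apart.

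For 9 of the 10 junction genes no difference between the diets passed the test. CLIP1, a microtubule-binding protein, was lower on HFr by 0.44 on the log2 scale (SE 0.15) and was the single gene of the 10 with an unadjusted p under 0.05. Across all tested transcripts, 4.29% had such a p, with 2.23% lower on HFr and 2.06% higher. CLIP1 was also the single gene of the 10 in which no HFr animal overlapped a chow animal, a pattern seen in 0.541% of tested transcripts. The study had listed CLIP1 from differences in these same animals, so that share is no measure of chance for it. After Benjamini-Hochberg adjustment over all tested transcripts in edgeR, no junction gene and no transcript was called (0.0%, smallest adjusted p = 0.872). That count of 0 stands beside 341 transcripts with an unadjusted p under 0.05 in edgeR and 330 in DESeq2, of which DESeq2 called 2 after adjustment.

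The fitted change was negative for 7 junction genes and positive for 3, with a median log2 fold change of -0.12. Over all tested transcripts 50.2% were lower on HFr, with a median of -0.00069. The adjusted p in edgeR was 0.9996 for each of the 10 genes, so every difference below is given with its unadjusted p and its interval.

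**Figure D1:**
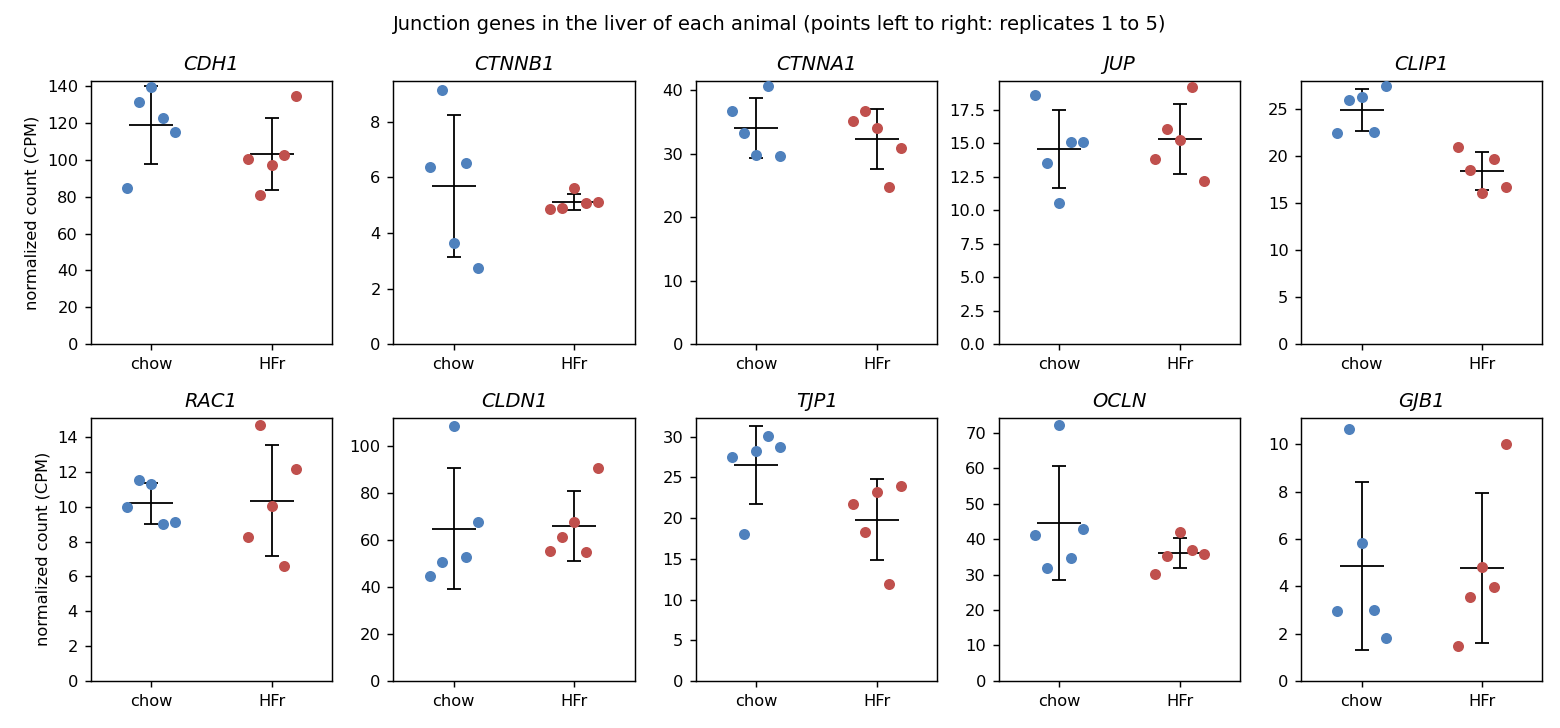
Normalized count in CPM (vertical axes, starting at 0) of each of the 10 junction genes in 5 chow animals (blue) and 5 HFr animals (red); the wide black line is the mean and the bars are the SD. The HFr points of CLIP1 all lie below its chow points, and in the other 9 genes the diets overlap.

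The plot of values by animal shows how differently the genes spread. Over all 10 animals the coefficient of variation was smallest for CTNNA1 (13.7%) and largest for GJB1 (66.1%), and the highest animal exceeded the lowest by 1.65-fold and 7.12-fold in these genes.

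E-cadherin, the transmembrane protein that defines the adherens junction, is encoded by CDH1 (ChlSab1.1 chr5:58578146-58679542, minus strand). Its level in HFr animals 1 to 5 was 101, 81.1, 97.0, 102 and 135 CPM, and in chow animals 1 to 5 it was 84.9, 131, 140, 122 and 115 CPM. The diets overlapped: the highest HFr animal exceeded 4 of the chow animals, and chow replicate 1 was among the lowest. The means were 103 ± 19.5 CPM (SD, n = 5) on HFr and 119 ± 21.1 CPM on chow (SD, n = 5). The log2 fold change was -0.20 (SE 0.19, 95% interval -0.61 to 0.20, edgeR p = 0.304, exact permutation p = 0.230).

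Beta-catenin, which binds the tail of E-cadherin and also acts as the nuclear effector of Wnt signalling, is encoded by CTNNB1 (chr22:2684022-2723950, plus strand). HFr animals 1 to 5 had 4.87, 4.90, 5.61, 5.08 and 5.11 CPM, whereas chow animals 1 to 5 had 6.36, 9.14, 3.64, 6.53 and 2.74 CPM. All HFr animals lay inside the chow range. The HFr values were tightly grouped, with a coefficient of variation of 5.82% against 44.8% on chow. These levels rest on 6 to 42 counts per animal, and counting error alone gives a coefficient of variation of 23.6% in the HFr group and 23.1% in the chow group. The HFr spread was therefore narrower than counting error would give. The difference in spread was not tested. The difference in level did not pass the test (log2 fold change -0.17, SE 0.30, 95% interval -0.82 to 0.48, edgeR p = 0.576, exact permutation p = 0.667).

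Alpha-catenin, the link from beta-catenin to actin, is encoded by CTNNA1 (chr23:41447675-41600191, plus strand). Its levels were 35.2, 36.8, 34.1, 24.7 and 30.9 CPM in HFr animals 1 to 5 and 36.8, 33.3, 29.9, 40.7 and 29.7 CPM in chow animals 1 to 5. It was the most even gene of the 10 from animal to animal, and its diet difference was small, with a log2 fold change of -0.08 (SE 0.17, 95% interval -0.43 to 0.28, edgeR p = 0.657, exact permutation p = 0.587). One other gene, LRRTM2, lies within the span of CTNNA1 on the opposite strand, and it had 1 count over all libraries.

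Plakoglobin, a close relative of beta-catenin that serves both adherens junctions and desmosomes, is encoded by JUP (chr16:64470959-64503323, plus strand). HFr animals 1 to 5 had 13.8, 16.0, 15.2, 19.2 and 12.2 CPM and chow animals 1 to 5 had 18.6, 13.5, 10.6, 15.1 and 15.1 CPM. The ranges nearly coincided, and the fitted change was 0.08 (SE 0.20, 95% interval -0.34 to 0.50, edgeR p = 0.690, exact permutation p = 0.675). In all 4 cadherin and catenin genes the difference was within the spread of the animals, and each interval included changes of either sign.

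CLIP1 (chr11:117620949-117729507, minus strand) encodes a linker protein that tracks the growing ends of microtubules. Its level in HFr animals 1 to 5 was 21.0, 18.5, 16.0, 19.6 and 16.7 CPM, and in chow animals 1 to 5 it was 22.5, 25.9, 26.2, 22.6 and 27.4 CPM. Every HFr animal was below every chow animal, with a gap of 1.51 CPM between the nearest animals. The means were 18.4 ± 2.04 CPM (SD, n = 5) on HFr and 24.9 ± 2.24 CPM on chow (SD, n = 5). The log2 fold change was -0.44 (95% interval -0.77 to -0.11, edgeR p = 0.0115), and a two-sided exact permutation test gave p = 0.00794, the smallest that 5 animals against 5 allow.

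The CLIP1 difference kept an unadjusted p under 0.05 when any 1 animal was left out, with log2 fold changes of -0.50 to -0.41. Scaled by library total alone, it was of similar size (-0.46) and did not pass the threshold. The study placed CLIP1 in an adherens junction remodeling list, drawing on genes and proteins that differed by diet in these same animals. Its difference is therefore not independent evidence for that list. Nor are its p-values, its lack of overlap or its stability here independent evidence of a diet difference. Its coefficient of variation within a diet was 11.1% on HFr and 9.01% on chow, against 12.4% and 11.3% from counting error alone.

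RAC1 (chr28:15583516-15610329, plus strand) encodes a small GTPase that directs actin assembly at new cell contacts. HFr animals 1 to 5 had 8.23, 14.7, 10.02, 6.62 and 12.2 CPM and chow animals 1 to 5 had 9.99, 11.5, 11.3, 9.04 and 9.13 CPM. Both the highest and the lowest animal were on HFr, and the means were close, at 10.4 ± 3.19 CPM (SD, n = 5) and 10.2 ± 1.17 CPM (SD, n = 5). The log2 fold change was 0.02 (SE 0.23, 95% interval -0.48 to 0.51, edgeR p = 0.941, exact permutation p = 0.921). It was lowest in HFr replicate 4 and highest in HFr replicate 2, libraries with mitochondrial shares of 62.2% and 41.8%. HFr replicate 3, with the highest share on HFr (67.8%), had 10.02 CPM. Over all animals, centred within diet, RAC1 had r = -0.70 with the mitochondrial share (permutation p = 0.0209, adjusted p = 0.132). The cause of the RAC1 spread was not tested. With the mitochondrial percent as a covariate, the log2 fold change was again 0.02 (SE 0.20).

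**Figure D2:**
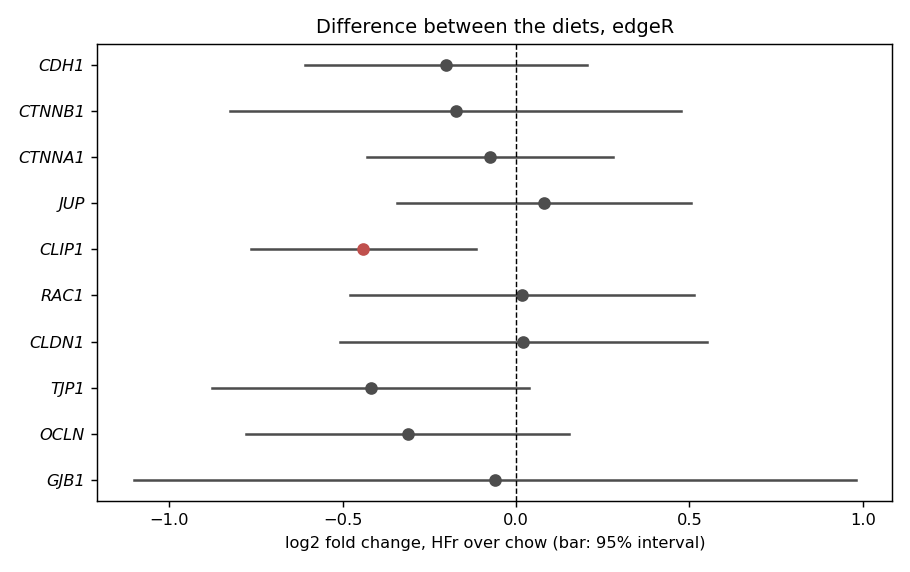
Log2 fold change of HFr over chow for each of the 10 junction genes from edgeR (points), with 95% intervals (bars); the dashed line marks no change. The interval of CLIP1 (red) lies below 0, the interval of TJP1 reaches 0.04, and the widest is that of GJB1.

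Among the tight junction genes, the largest fitted difference was in TJP1 (chr26:52622743-52749951, minus strand), the zonula occludens scaffold that anchors claudins and occludin to actin. Its level in HFr animals 1 to 5 was 21.7, 18.3, 23.2, 11.9 and 23.98 CPM, and in chow animals 1 to 5 it was 27.5, 18.1, 28.2, 30.1 and 28.8 CPM. Each of the 5 HFr animals lay under the chow mean, and 4 of the chow animals were above every HFr animal. The exception was chow replicate 2, which sat lower than 4 of the HFr animals.

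The TJP1 means were 19.8 ± 4.94 CPM (SD, n = 5) on HFr and 26.5 ± 4.83 CPM (SD, n = 5) on chow. The difference did not pass the threshold, with a log2 fold change of -0.42 (SE 0.21, 95% interval -0.88 to 0.04, edgeR p = 0.0694) and p = 0.0714 in a two-sided exact permutation test. Without chow replicate 2 it was -0.53 and without HFr replicate 5 it was -0.51, both with an unadjusted p under 0.05 in edgeR, and without HFr replicate 4 it was -0.28 and did not pass.

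OCLN (chr4:65582460-65644788, plus strand) encodes occludin, a membrane protein of the seal that binds the TJP1 product. HFr animals 1 to 5 had 30.3, 35.2, 42.1, 37.1 and 35.8 CPM and chow animals 1 to 5 had 41.3, 31.8, 72.1, 34.6 and 42.9 CPM. Each HFr animal lay under the chow mean, but that mean was raised by chow replicate 3, and the other 4 chow animals, at 31.8 to 42.9 CPM, overlapped the HFr animals at 30.3 to 42.1 CPM. The log2 fold change was -0.31 (SE 0.22, 95% interval -0.78 to 0.15, edgeR p = 0.174, exact permutation p = 0.310). Without chow replicate 3 it shrank to -0.06.

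CLDN1 (chr15:84516478-84532970, minus strand) encodes claudin 1, a strand-forming protein of the seal. Its levels were 55.0, 61.0, 67.7, 54.7 and 90.6 CPM in HFr animals 1 to 5 and 44.7, 50.5, 108, 52.7 and 67.5 CPM in chow animals 1 to 5. The means were 65.8 ± 14.8 CPM (SD, n = 5) and 64.8 ± 25.8 CPM (SD, n = 5), and the log2 fold change was 0.02 (SE 0.25, 95% interval -0.51 to 0.55, edgeR p = 0.933, exact permutation p = 0.905). Chow replicate 3 was again the highest animal, and without it the CLDN1 estimate was 0.29.

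GJB1 (chrX:61017716-61018568, plus strand) encodes the principal connexin of hepatocytes. HFr animals 1 to 5 had 1.497, 3.56, 4.81, 3.97 and 10.02 CPM and chow animals 1 to 5 had 2.95, 10.7, 5.83, 3.01 and 1.83 CPM. The diets overlapped fully, with 1 high animal in each. The means were 4.77 ± 3.18 CPM (SD, n = 5) and 4.86 ± 3.57 CPM (SD, n = 5), and the log2 fold change was -0.06 (SE 0.49, 95% interval -1.10 to 0.98, edgeR p = 0.902, exact permutation p = 0.952).

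The animals differed in GJB1 by more than counting error. It had 4 to 51 counts per animal, counting error alone gives a coefficient of variation of 23.2% on HFr and 23.3% on chow, and the observed values were 66.6% and 73.4%. The 2 highest animals, HFr replicate 5 and chow replicate 2, moved the estimate most: it was -0.55 without the first and 0.44 without the second, neither of which passed the test. Their libraries had mitochondrial shares of 44.0% and 34.7%. HFr replicate 2 and chow replicate 3 had similar shares, 41.8% and 43.0%, with 3.56 and 5.83 CPM. Over all animals, centred within diet, GJB1 had r = -0.70 with the mitochondrial share (permutation p = 0.0264, adjusted p = 0.132). The cause of the GJB1 spread was not tested. With the mitochondrial percent as a covariate, the log2 fold change was 0.15 (SE 0.39), which did not pass the test either. The model of GJB1 in the table spans 852 bases of the genome.

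None of 9 other gap junction genes had enough counts to be tested. GJA1, the connexin of many non-parenchymal cells, had the most counts of them, 46 in all on HFr and 115 on chow, and 3 to 49 per animal. GJB2, the other connexin known from hepatocytes, had 0 counts in all on HFr and 2 on chow, against a limit of 3 that a count of 0 allows. The model of GJB2 spans 681 bases of the genome. Whether the short models of GJB1 and GJB2 hold the whole transcript was not checked.

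Around these genes, 70 further genes of the same structures or of beta-catenin signalling were found in the table, and 41 of them could be tested. Of the 41, 2 had an unadjusted p under 0.05, both higher on HFr, and none had groups without overlap. This share is close to the 4.29% of all tested transcripts. Both act at adherens junctions or desmosomes. PKP4, an armadillo protein found at cell contacts, had 29.8 ± 3.93 CPM (SD, n = 5) on HFr and 21.3 ± 3.74 CPM on chow (SD, n = 5), which gave a log2 fold change of 0.48 (SE 0.17, edgeR p = 0.0141, exact permutation p = 0.0238, adjusted p = 0.9996). Its HFr animals ranged from 23.6 to 34.3 CPM and its chow animals from 16.0 to 24.8 CPM, so that HFr replicate 5 alone overlapped the chow animals.

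DSP, the desmoplakin that ties desmosomes to keratin, had 31.4, 40.1, 28.9, 16.8 and 15.7 CPM in HFr animals 1 to 5 and 14.8, 12.8, 24.4, 14.6 and 13.2 CPM in chow animals 1 to 5. HFr replicates 1 to 3 were above every chow animal, and HFr replicates 4 and 5 were below chow replicate 3. The log2 fold change was 0.71 (SE 0.28, edgeR p = 0.0232, adjusted p = 0.9996), but a two-sided exact permutation test gave p = 0.0556. The edgeR call was lost when HFr replicate 1 (0.64), HFr replicate 2 (0.50), chow replicate 2 (0.63) or chow replicate 5 (0.65) was left out.

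Of 15 tested genes in the list of other adherens junction and desmosome genes, 7 were higher and 8 lower on HFr, with a median log2 fold change of -0.03. The 2 with the highest mean CPM, uncorrected for length, were AFDN, the actin-binding partner of nectins (187 ± 57.1 CPM on HFr and 163 ± 22.4 CPM on chow, SD, n = 5, edgeR p = 0.379, exact permutation p = 0.405), and ACTN4, an actin crosslinker (75.7 ± 4.57 and 89.0 ± 22.3 CPM, edgeR p = 0.240, exact permutation p = 0.278). VCL, the vinculin of adherens junctions, had at most 4 counts in any animal and was not tested.

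Of 27 other tight junction genes found in the table, 17 were tested. None had an unadjusted p under 0.05 in edgeR, 11 had a positive and 6 a negative estimate, and the median log2 fold change was 0.09. The paracingulin gene CGNL1 had 73.9 ± 13.3 CPM on HFr and 69.5 ± 16.3 CPM on chow (SD, n = 5, edgeR p = 0.654, exact permutation p = 0.627). Cingulin, encoded by CGN, had 54.4 ± 13.3 and 48.5 ± 8.19 CPM (edgeR p = 0.416, exact permutation p = 0.413).

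Beta-catenin also acts outside the junction, where it drives genes of the hepatocytes around the central vein. Of 17 genes of its destruction complex and liver targets, 9 were tested and none had an unadjusted p under 0.05 in edgeR. Of the 9, 8 had a negative estimate, with a median log2 fold change of -0.13, where 50.2% of all tested transcripts were lower on HFr. The list mixes the destruction complex with target genes, so its signs are no measure of beta-catenin activity. CYP2E1, a cytochrome of those hepatocytes, had 3105 ± 830 CPM on HFr and 3890 ± 810 CPM on chow (SD, n = 5, edgeR p = 0.230, exact permutation p = 0.159). OAT, the ornithine aminotransferase, had 264 ± 124 and 540 ± 411 CPM, with a log2 fold change of -1.03 (SE 0.51, edgeR p = 0.0595, exact permutation p = 0.230) that became -0.55 without chow replicate 1 and passed the threshold in edgeR without chow replicate 2 (-1.27) or 4 (-1.21).

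**Figure D3:**
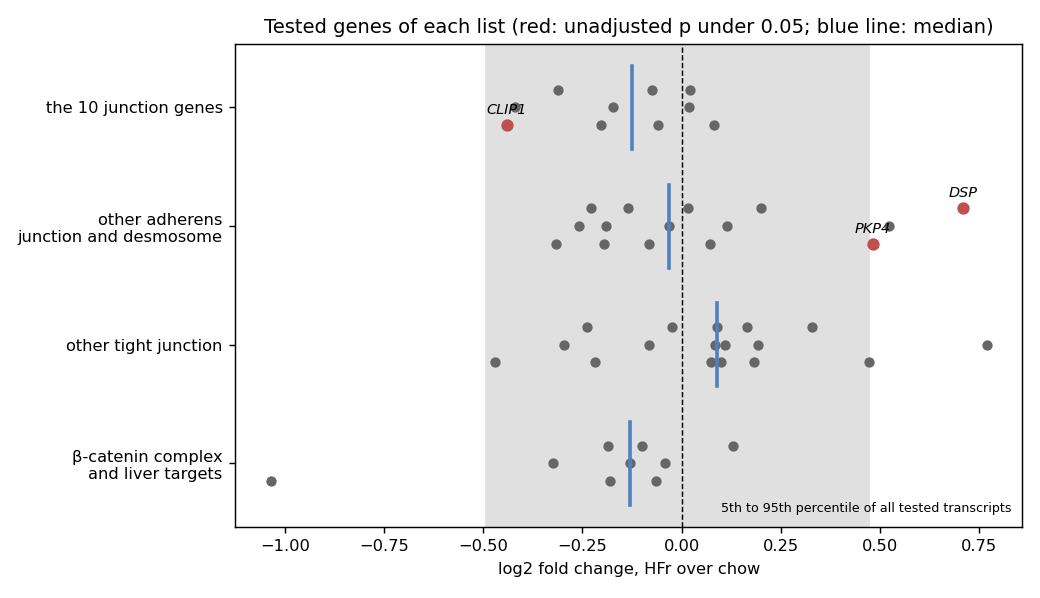
Log2 fold change of HFr over chow (horizontal axis) of every tested gene in the 10 junction genes and 3 related lists; points are genes, red marks an unadjusted p under 0.05, the blue line is the median, and vertical position within a list has no meaning. The grey band runs from the 5th to the 95th percentile of all tested transcripts (-0.49 to 0.47), and CLIP1, PKP4 and DSP are the 3 named red points.

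As the plot of the lists shows, most of these genes lay within the range of tested transcripts in general. CLIP1 ranked at the 87.6th percentile of absolute log2 fold change among all tested transcripts, TJP1 at the 86.4th and OCLN at the 76.2nd, and the other 7 genes lay at or below the 57.3rd.

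How the junction genes varied together was described over the 10 animals, from log2 (CPM + 1) values centred within each diet. Of 45 pairs, 23 correlated positively and 22 negatively, with a median Pearson r of 0.0061, so that the 10 genes did not vary as 1 block. In permutation tests, 4 pairs had an unadjusted p under 0.05 and none passed after adjustment over the 45 pairs (smallest adjusted p = 0.181). These results depend on the animals and on the scaling. Without the 2 animals farthest from the median of the first gene, 1 pair passed after adjustment, RAC1 with GJB1 (r = 0.95, permutation p = 0.00033, adjusted p = 0.0149), which over all 10 animals had r = 0.48 and rho = 0.60 (permutation p = 0.163 and 0.0720, adjusted p = 0.553 and 0.443). Scaled by library total alone, 25 of the 45 pairs passed after adjustment.

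The strongest positive pair was CLDN1 with OCLN, both of the tight junction seal, with r = 0.77 and rho = 0.64 (permutation p = 0.0121 and 0.0549, adjusted p = 0.181 and 0.443). It was 0.89 among the chow animals and 0.30 among the HFr animals, and chow replicate 3 was highest in both genes. Without the 2 animals farthest from the CLDN1 median, r was 0.51 (permutation p = 0.194). CDH1 and CLDN1 had r = 0.64 and rho = 0.39 (permutation p = 0.0488 and 0.265, adjusted p = 0.549 and 0.783), and r = 0.38 without the 2 animals farthest from the CDH1 median.

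JUP ran against 2 of the membrane proteins. With CLDN1 it had r = -0.80 and rho = -0.59 (permutation p = 0.0060 and 0.0818, adjusted p = 0.181 and 0.443), and with CDH1 r = -0.76 and rho = -0.75 (permutation p = 0.0108 and 0.0173, adjusted p = 0.181 and 0.443). The sign was negative within each diet in both pairs. Without the 2 farthest animals r fell to -0.37 for JUP with CLDN1 and stood at -0.54 for CDH1 with JUP, so these relations rest in part on those animals.

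**Figure D4:**
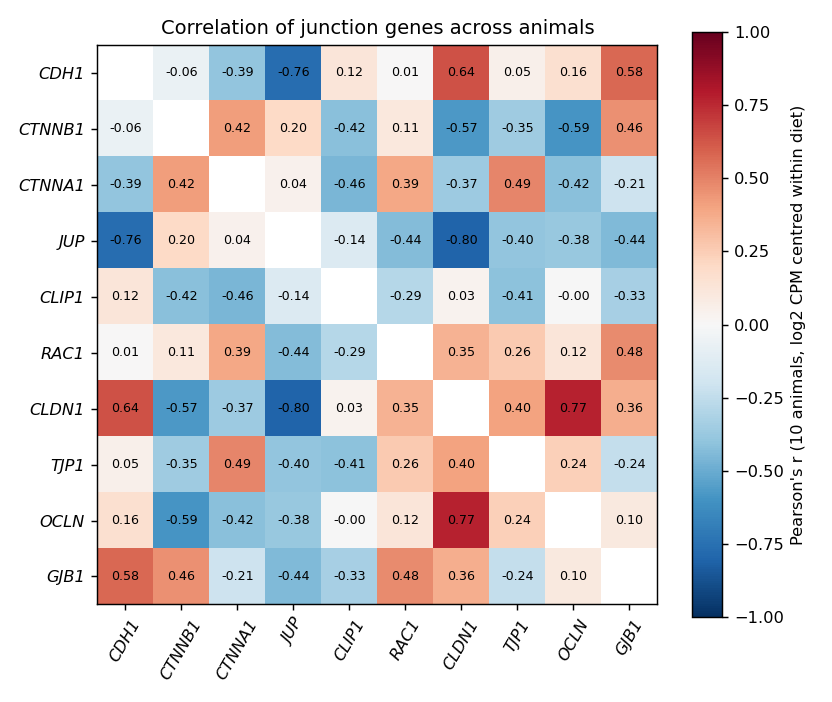
Pearson's r for each pair of the 10 junction genes over 10 animals, from log2 (CPM + 1) centred within diet; red is positive and blue negative. The darkest red square is CLDN1 with OCLN (0.77) and the darkest blue are JUP with CLDN1 (-0.80) and JUP with CDH1 (-0.76).

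Cell types that carry these junctions were checked beside the result. Cholangiocytes share many of the junction genes with hepatocytes. The summed CPM of 7 cholangiocyte markers found in the table ranged from 15.1 to 49.0 on HFr and from 23.1 to 46.3 on chow (two-sided exact permutation p = 0.405), and none of its 3 tested genes had an unadjusted p under 0.05. Endothelial markers summed to 248 to 274 CPM on HFr and 178 to 274 CPM on chow (exact permutation p = 0.127), and stellate cell and fibroblast markers to 196 to 379 and 161 to 775 CPM (exact permutation p = 0.444).

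Over 9 such lists, summed levels overlapped between the diets and no exact p was under 0.05. Among single markers, the endothelial receptor gene KDR was higher on HFr (32.5 ± 4.82 against 21.95 ± 5.55 CPM, SD, n = 5, log2 fold change 0.57, SE 0.19, edgeR p = 0.0109, exact permutation p = 0.0317). ACTA2, the actin of activated stellate cells and smooth muscle, was lower on HFr (5.17 ± 2.23 against 15.8 ± 10.4 CPM, log2 fold change -1.57, SE 0.49, edgeR p = 0.0065, exact permutation p = 0.0397). No other tested marker had an unadjusted p under 0.05 in edgeR, where 4.29% of all tested transcripts did. The hepatocyte marker TF, higher on HFr (5693 ± 326 against 4417 ± 1095 CPM, SD, n = 5), passed in the exact permutation test alone (p = 0.0476, edgeR p = 0.155). Of 8 tested endothelial markers, 6 were higher and 2 lower on HFr. Of 5 tested stellate cell and fibroblast markers, 1 was higher and 4 were lower. The adjusted p in edgeR was 0.9996 for both KDR and ACTA2, and their part in the CLIP1 difference was not tested.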

How the data were processed

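Liver RNA of 10 animals was sequenced as 100 base paired-end reads from stranded, polyadenylated libraries. The authors demultiplexed with CASAVA 1.8, kept reads of Phred score 30 or more, aligned with STAR 2.5.3a to ChlSab1.1, and assigned reads to Ensembl release 93 transcripts by expectation-maximization in Partek Flow. The strand setting of the counting is not given in the sources used here. The deposited expected counts are not normalized, and 97.69% were whole numbers. The deposited normalized signal values were scaled by the authors with TMM and were used in 1 alternative only.

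Counts were rounded, filtered (filterByExpr, minimum count 10, minimum total count 15) and compared between diets with edgeR 4.0.16 in R 4.3.3 (quasi-likelihood, TMM, diet as the only term). Adjusted p-values are Benjamini-Hochberg values over 7948 transcripts, and the threshold was 0.05. Single values were compared by exact permutation over 252 assignments. Depth per animal was 2977282 to 4992505 counts. Coordinates are as tabulated (starts count from 1, and the stop base lies outside the gene).

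The 10 genes and all lists were chosen with earlier results of these data known. The values of 1 further list and 1 further gene are not reported here. Named from the lists are genes with an unadjusted p under 0.05 and the 2 with the highest mean CPM. Alternatives were DESeq2 1.42.0, limma 3.58.1, other scalings and filters, counts summed by gene or not rounded, robust estimation, the study's test, mitochondrial terms, a replicate block, and each animal left out. On simulated data with 7948 transcripts, an unadjusted p under 0.05 was reached in edgeR by 88% of those shifted by 1 (log2). An adjusted p under 0.05 was reached by 36% of them. No junction gene had a fitted change that large, and smaller shifts were not simulated.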

Additional observations from a re-analysis of the deposited data

Results flagged for a closer look

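In 2 of 20 groups (10 genes in 2 diets) 1 animal stood apart from the other 4 by Dixon's test, where chance gives about 1 in 20. TJP1 was 18.1 CPM in chow replicate 2, and the other chow animals had 27.5 to 30.1 CPM. OCLN was 72.1 CPM in chow replicate 3, and the other chow animals had 31.8 to 42.9 CPM.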

How the results depend on the processing

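Scaled by library total alone, 124 transcripts had an unadjusted p under 0.05, no junction gene did by edgeR (0) or by exact permutation (0), and 25 of 45 gene pairs correlated after adjustment. CLIP1 (-0.46), DSP (0.74), PKP4 (0.46) and KDR (0.59) lost their calls in edgeR there. Another filter, keeping transcripts with a count in any animal, gave 756 of 16066 transcripts (4.71%), and the study's equal-variance test on the deposited normalized values gave 633 of 16105 (3.93%), against 341 of 7948 (4.29%). Without the 2 farthest animals, 1 gene pair had an adjusted p under 0.05 (RAC1 with GJB1). No scaling moved the median of all transcripts by over 0.1, and 7 junction genes were lower on HFr under each of 4 scalings.

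With 1 animal left out, 1 to 2 junction genes had a p under 0.05 in edgeR and 1 to 2 in the exact test, the second being TJP1 (without chow replicate 2 in both, without HFr replicate 5 in edgeR), and 0 to 1 marker lists did (endothelial, without chow replicate 1). The log2 fold change then ran from -0.32 to 0.087 for CTNNB1, -0.13 to 0.0036 for CTNNA1, -0.026 to 0.20 for JUP, -0.15 to 0.14 for RAC1, -0.12 to 0.29 for CLDN1, -0.55 to 0.44 for GJB1 and -0.011 to 0.21 for CGNL1, so none of these 7 has a stable sign. RAC1 also turned negative in limma with a pseudocount of 1 (-0.020) or 0.1 (-0.026), in voom (-0.0012) and with a replicate block (-0.0068). GJB1 turned positive in the study's test (0.031), in limma with a pseudocount of 1 (0.0050) or 0.1 (0.0044) and with the mitochondrial percent as a covariate (0.15). The cause was not tested.

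CLIP1 had an unadjusted p under 0.05 in 25 of 26 alternatives. CDH1, CLIP1, TJP1 and OCLN were lower on HFr in all 26. The animals were not treated as paired by replicate number. Deviations of animals with the same number correlated at -0.29 to 0.10, and a replicate block gave 271 transcripts against 341 without it. These values cannot show whether animals with the same number were matched. CTNNB1 and GJB1 have no value with a filter of 10 counts in every animal. Low counts limit GJB1 (4 to 51 per animal) and CTNNB1 (6 to 42 per animal), but they are not the only limit. The spread between animals exceeded counting error for GJB1 on both diets and for CTNNB1 on chow.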

Other observations

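For 1 gene of each junction type, the tested transcripts with the most similar pattern over the 10 animals were ranked by Pearson's r of log2 (CPM + 1). They were picked as the highest among tested transcripts that had a gene name and were not among the 10 junction genes, so no p is given. CDH1 was most like PON1 (r = 0.93), a secreted liver lactonase, and GPAM (0.92), an acyltransferase of glycerolipid synthesis. TJP1 was most like NARS (0.97), an aminoacyl-tRNA synthetase, and HECA (0.92). GJB1 was most like CYP2B6 (0.95), a drug-metabolizing cytochrome, and ALDH1B1 (0.94), a mitochondrial aldehyde dehydrogenase. Without the 2 animals farthest from the median of the junction gene, r was between 0.80 and 0.94 in these 6 pairs. The remaining animals had also served to pick the pairs, so these values are no separate check.

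After the values were seen, each junction gene was also compared with the mitochondrial share and with the nuclear count total of its library, centred within diet, in 2 families of 10 relations. RAC1 ran against the mitochondrial share (r = -0.70, rho = -0.72, permutation p = 0.0209 and 0.0237, adjusted p = 0.132 and 0.237), with r = -0.60 without the 2 farthest animals. GJB1 did so too (r = -0.70, rho = -0.55, permutation p = 0.0264 and 0.104, adjusted p = 0.132 and 0.521), with r = -0.67 without the 2 farthest animals. GJB1 also rose with nuclear counts (r = 0.70, rho = 0.71, permutation p = 0.0273 for both, adjusted p = 0.272 and 0.273). None of the 20 relations passed after adjustment, and for CLIP1 r was -0.13 with the mitochondrial share and 0.10 with nuclear counts.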
